A study of Arabidopsis thaliana with 44 samples.

Results

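The cool temperature response of dry seed in NIL DOG3 was read from 6 of the 44 arrays of the series, 3 arrays of seed set at 15C and 3 arrays of seed set at 20C, over all 27827 probe sets. NIL DOG3 is a near isogenic line of Arabidopsis thaliana named for the locus DELAY OF GERMINATION 3. Such a line carries a chromosome segment of another accession in a common background. The labels name neither accession. The mother plants, and the seed on them, grew at 15C or at 20C, and RNA came from freshly harvested dry seed. The other lines used for comparison are NIL DOG1 and NIL DOG6, named for 2 other dormancy loci, each with 3 arrays at 15C and 3 arrays at 20C. Seed from low nitrate (N0), low light (LL) and standard light (SL) entered the fit, and the LL and SL arrays served to find the probe sets that mark the line. Per the labels, plants stood in randomized complete blocks and each replicate was a bulk of 4 plants, so the spread is one between bulks and not between single plants. The arrays are labelled as total RNA.

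Dormancy is the state in which a mature viable seed does not germinate under conditions that otherwise allow it. The hormone abscisic acid (ABA) holds seed dormant, and gibberellin promotes germination. The DOG1 gene codes for a protein that sets the depth of dormancy, and its transcript is known to be more abundant in seed that matured in the cool. The transcripts of dry seed were stored during maturation, and little or no transcription takes place in seed this dry, so the arrays record the RNA present at harvest. With bulk seed, less RNA per cell and fewer cells of a type cannot be told apart.

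Values are RMA log2 values deposited by the authors, in which a difference of 1 is 2-fold. All differences are 15C minus 20C, so that a positive one means higher at 15C, and errors after ± are standard errors of the fit unless said otherwise. Calls were made with limma wherever the p adjusted over all probe sets (Benjamini-Hochberg) was under 0.05. Array medians lay between 4.22 and 4.39, and the correlation between arrays over all probe sets was 0.990 to 0.994 within the NIL DOG3 groups and 0.986 to 0.989 between 15C and 20C. As dry seed should, all 6 arrays held a high mean level of storage protein and oil body genes (11.4 to 11.5 at 15C, 11.5 to 11.6 at 20C) and of late embryogenesis genes (11.3 to 11.4 at 15C, 11.2 to 11.5 at 20C). The mean level of 8 shoot markers was 3.42 to 3.74 at 15C and 3.66 to 3.73 at 20C, below the median of all probe set means (4.29). The 20 pollen markers averaged 4.23, 4.11 and 4.26 at 15C, against 5.02, 4.49 and 4.34 at 20C, with none of them called and 12 of them below that median at 15C. Their median change was -0.43 in NIL DOG3, -0.44 in NIL DOG1 and -0.41 in NIL DOG6, so they were lower at 15C in each line. The fit that held a pollen index called 2299 probe sets, against 2557 without it, and of 96 named gene results 93 kept their call in it.

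An array of the 15C group stood apart in a chromosome segment. From the LL and SL arrays, 62 probe sets were picked that separated NIL DOG3 from both other lines, a choice made after the data had been seen. Of these, 45 lie on chromosome 1 and 12 on chromosome 5. For each, the difference of a NIL DOG3 array from the other lines was expressed as a percentage of the difference seen in LL and SL. Over 43 loci from AT1G22275 to AT1G33055 the median was 95.7%, 94.9% and 92.9% in the 15C arrays, against 101%, 99.4% and 96.6% in the 20C arrays. Over 6 loci from AT5G57260 to AT5G59770 it was 95.8%, 89.8% and 88.2% at 15C, against 94.2%, 96.6% and 94.9% at 20C. These 2 segments therefore marked all 6 arrays as NIL DOG3.

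Over 5 loci from AT5G60640 to AT5G66053, at the end of chromosome 5, the medians were 86.2%, 69.6% and -2.76% in replicates 1, 2 and 3 at 15C, against 113%, 118% and 94% at 20C. Replicate 3 at 15C thus had the level of the other lines there. The clearest case was AT5G66053, with 8.47, 7.92 and 2.97 at 15C, against 9.38, 8.63 and 8.94 at 20C and 2.92 to 3.5 in the 12 arrays of the other lines at both temperatures. Why this array differs was not tested. Of the 864 probe sets after AT5G59770 on chromosome 5, 110 (12.7%) were called with all arrays and 75 (8.68%) without this array. Over the whole table the counts were 2557 (9.19%) with all arrays and 1773 (6.37%) without it. Results without this array follow for the 5 loci, and several calls elsewhere that were lost without it are named further on. Of the 5 loci, AT5G65850 (-1.27 ± 0.28) and PDIL1-4 (-0.82 ± 0.16) were still called lower at 15C without it (limma, adjusted p = 0.00302 and 9.69e-04). AT5G66053, AT5G66052 and AT5G63080 were not. At AT5G65850 replicates 1 and 2 at 15C stood at 33% and 30.7%, against 97%, 76.1% and 106% at 20C. At AT5G66053 these replicates stood at 100% and 90%.

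**Figure D1:**
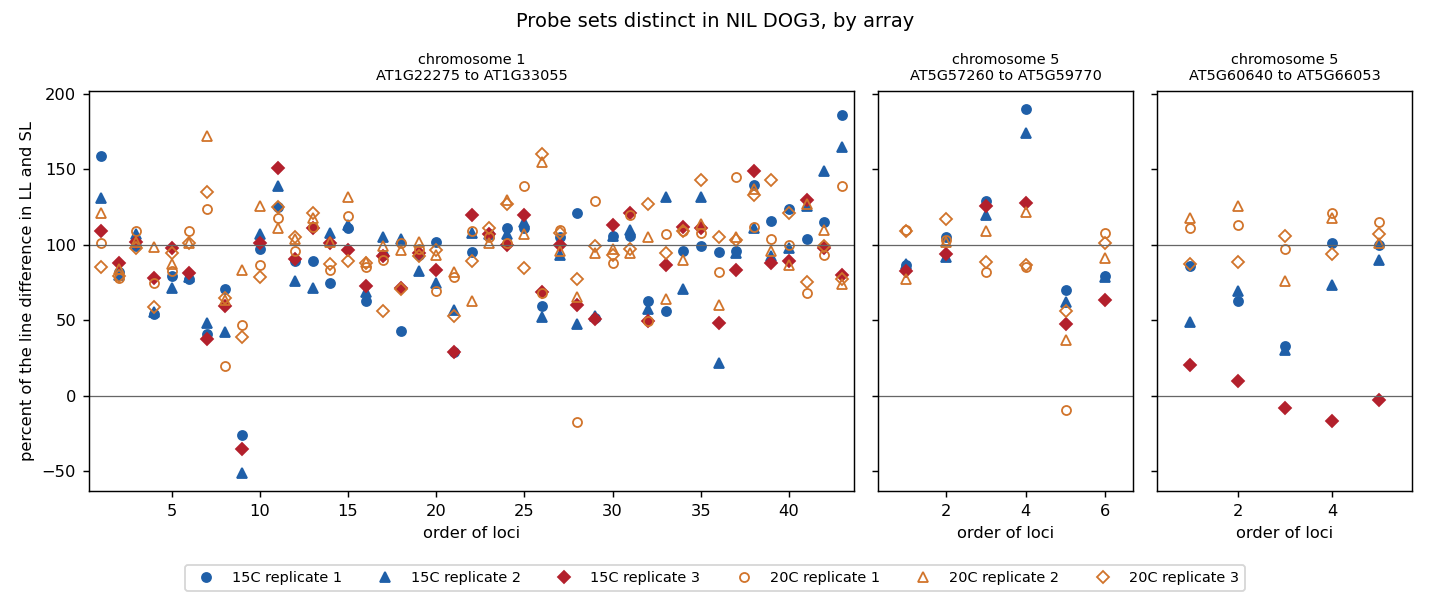
Level of 54 probe sets that mark NIL DOG3, as percent of the difference from the other lines in the LL and SL arrays (y axis), in the order of the loci within 3 chromosome segments (x axis), 1 point per array. Filled points are 15C arrays and open points 20C arrays. Replicate 3 at 15C (red diamonds) falls to between -16.5% and 20.3% in the last segment of chromosome 5, where the other 5 arrays lie between 30.7% and 126%.

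In all, 2557 of 27827 probe sets were called between 15C and 20C in NIL DOG3, 9.19% of those tested. Of these, 1377 (4.95%) were higher at 15C and 1180 (4.24%) were lower. A change of at least 2-fold was called in 292 probe sets (1.05%), 187 of them higher (0.672%) and 105 lower (0.377%). The 3 arrays at 15C did not overlap the 3 at 20C in 7288 probe sets (26.2%), and 2513 (9.03%) were both called and free of overlap. The median change over all probe sets was -0.01, and the median standard error of a change was 0.16. The genes below are grouped by their known roles, and the share of members called is given beside 9.19% over all probe sets. That share covers bright and dim probe sets together. With the dim probe sets left out, the fit called 3031, which is more calls from fewer probe sets. A list of bright genes can thus exceed 9.19% without standing out from other bright probe sets.

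The DOG1 gene (AT5G45830, chromosome 5) stood at 8.79, 8.53 and 8.81 in seed from 15C, against 6.2, 5.76 and 6.39 in seed from 20C. Every 15C array was above every 20C array, by more than 2 log2 units. The difference was 2.6 ± 0.17, a 6.04-fold higher level at 15C (adjusted p = 2.72e-12). In the other lines the DOG1 gene rose by 1.72 ± 0.17 (NIL DOG1) and 2.41 ± 0.17 (NIL DOG6), and the difference of NIL DOG3 from their mean, 0.53 ± 0.21, did not pass (adjusted p = 0.888). At 20C its level in NIL DOG3 was lower than the mean of the other lines, by 0.75 on the log2 scale (adjusted p = 0.00189), and at 15C the difference was -0.22 (adjusted p = 0.61). The difference at 20C rests on NIL DOG1, since the 20C means were 6.12 in NIL DOG3, 7.65 in NIL DOG1 and 6.08 in NIL DOG6.

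Among 27 regulators of dormancy and seed maturation, 5 rose, 2 fell and the other 20 did not pass, with a median change of 0.05. MFT, a relative of the flowering signal FT that acts between ABA and gibberellin in seed, had 9.03, 8.60 and 9.07 at 15C, against 8.06, 8.10 and 8.26 at 20C (0.76 ± 0.13, adjusted p = 1.64e-04). BME3, a GATA factor that promotes germination, rose by 0.78 ± 0.20 (adjusted p = 0.00974). The phosphatase gene AHG3, a brake on ABA signalling in seed, and BZIP53, an activator of maturation genes, rose by 0.66 ± 0.08 and 0.53 ± 0.12. PIF1, a light-sensitive repressor of germination, had 5.62, 5.66 and 5.95 at 15C, against 6.73, 6.69 and 6.58 at 20C, and fell by 0.92 ± 0.16 (adjusted p = 1.36e-04). MYB96, an activator of ABA responses, was dim and fell by 0.56 ± 0.17 (adjusted p = 0.0291). Without 15C replicate 2 or 3, or 20C replicate 1 or 3, 1 member fell instead of 2. The maturation regulators ABI3 (0.05 ± 0.10), FUS3 (0.21) and LEC1 (-0.10) did not pass.

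ABA is made from carotenoids, with the NCED enzymes at the limiting step, and is broken down by the CYP707A hydroxylases. Of 10 synthesis genes none was called in NIL DOG3 by limma, with 3 at an unadjusted p under 0.05, and the 2 with the largest values were NCED3 (0.61 ± 0.24, adjusted p = 0.106) and NCED6 (0.53 ± 0.20, adjusted p = 0.0995). Without 15C replicate 2 or 20C replicate 2, 1 member was called. In the other lines 3 (NIL DOG1) and 2 (NIL DOG6) of the 10 were called higher, and no difference between the lines passed. Of the 4 breakdown genes 1 rose and 1 fell. CYP707A1 had 5.44, 4.67 and 5.33 at 15C, against 3.25, 3.80 and 3.79 at 20C, which is 2.90-fold higher (1.54 ± 0.28, adjusted p = 2.41e-04). CYP707A2, whose product lowers ABA when seed takes up water, had 6.63, 7.28 and 7.21 at 15C, against 7.44, 7.90 and 7.47 at 20C (-0.56 ± 0.15, adjusted p = 0.0121). That call was lost without 15C replicate 1 (-0.36, adjusted p = 0.175) and without 20C replicate 2 (-0.41, adjusted p = 0.125).

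Perception of ABA joins PYR/PYL receptors to clade A PP2C phosphatases, which otherwise hold the SnRK2 kinases and their transcription factors inactive. In a list of 25 such genes, 10 rose, 2 fell and the median change was 0.24. All 7 PP2C genes of this list rose, by 0.44 (HAB1) to 0.85 (ABI2). ABI2 had 9.74, 9.50 and 9.46 at 15C, against 8.80, 8.68 and 8.67 at 20C (0.85 ± 0.10, adjusted p = 8.81e-07). ABI1 and HAI2 followed with 0.64 ± 0.12 and 0.66 ± 0.12. The receptor genes moved both ways. PYR1 (0.57) and PYL2 (0.58) rose, while PYL8 had 3.37, 3.46 and 3.08 at 15C, against 4.71, 4.53 and 4.36 at 20C, and fell by 1.23 ± 0.19 (adjusted p = 2.27e-05). The transcription factor gene ABI4 fell by 0.88 ± 0.18 (adjusted p = 0.00129), ABF4 rose by 0.47 ± 0.12, and ABI5 (0.21), with all 3 SnRK2 genes (-0.23 to -0.13), did not pass. The count of members that rose was 6 without 20C replicate 1.

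Gibberellin is inactivated by GA 2-oxidases. Of 16 metabolism genes 2 rose, both of this class. GA2OX6 had 5.62, 4.97 and 5.42 at 15C, against 3.85, 3.81 and 3.74 at 20C (1.54 ± 0.19, 2.91-fold, adjusted p = 8.97e-07), and GA2OX2 rose by 0.89 ± 0.17 (adjusted p = 6.20e-04). The synthesis gene GA3OX1 gave 2.43 to 2.61 at 15C and 2.06 to 2.5 at 20C, with overlapping arrays. None of 9 signalling genes, among them the GID1 receptors and the DELLA repressors, passed in limma, with 3 at an unadjusted p under 0.05, and their changes lay between -0.35 and 0.37. Without 15C replicate 1 or 20C replicate 1, 1 of them was called lower.

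The sulphur limitation genes held the largest share of called members among the lists, which were chosen with earlier results of these data known. In plants short of sulphate they raise uptake and release sulphur from stored compounds. Of 15 members 11 rose, none fell, all 15 values were above 0, and the median change was 0.61. BGLU28, a thioglucosidase, had the largest rise of all probe sets, with 8.30, 8.10 and 8.19 at 15C, against 5.13, 5.39 and 5.04 at 20C (3.01 ± 0.36, 8.06-fold, adjusted p = 4.52e-07). LSU1, the first of the RESPONSE TO LOW SULFUR genes, stood at 7.50, 8.23 and 8.04 in 15C seed and at 5.15, 6.09 and 5.22 in 20C seed (2.44 ± 0.36, adjusted p = 1.57e-05). In both genes the temperatures were separated by more than 1 log2 unit.

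The sulphate transporter gene SULTR1;2 rose by 1.26 ± 0.27 (adjusted p = 0.00183), and GGCT2;1, an enzyme of glutathione breakdown, by 1.24 ± 0.25 (adjusted p = 7.92e-04). BGLU30 (1.2) and SDI1 (0.94) rose too, and the other called members, LSU2, LSU3, SDI2, APR3 and SHM7, rose by 0.44 to 0.74. LSU4 (0.30), SULTR1;1 (0.09), SULTR2;1 (0.12) and SULTR4;2 (0.54, adjusted p = 0.0865) did not pass. The medians of the list in NIL DOG1 and NIL DOG6 were 0.85 and 0.64, with 10 of 15 members higher in each.

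Nitrate is reduced to nitrite by nitrate reductase (NIA1, NIA2) and to ammonium by nitrite reductase (NIR1). Of 21 nitrogen assimilation genes 8 fell and 1 rose, with a median change of -0.20. NIA1 had 6.47, 6.91 and 7.11 at 15C, against 8.67, 8.70 and 8.70 at 20C, a 3.63-fold lower level (-1.86 ± 0.23, adjusted p = 7.37e-07). NIR1 had 7.12, 7.82 and 7.75 at 15C, against 9.23, 9.40 and 9.16 at 20C (-1.70 ± 0.23, adjusted p = 4.37e-06). Both genes had every 15C array at least 1 log2 unit below every 20C array.

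UPM1, which makes the sirohaem cofactor of nitrite and sulphite reductase, fell by 1.48 ± 0.17 (adjusted p = 1.62e-07). FNR2, a ferredoxin reductase of non-green plastids, fell by 1.37 ± 0.23 (adjusted p = 9.48e-05), and its partner FNR1 by 0.69 ± 0.16. The plastid glucose 6-phosphate dehydrogenases G6PD2 and G6PD3, which feed reducing power to these enzymes, fell by 1.04 and 0.71. The plastid glutamine synthetase gene GLN2 had 2.53, 2.85 and 2.61 at 15C, against 3.19, 4.05 and 3.89 at 20C (-1.05 ± 0.17), values in the dim range of the array. The cytosolic GLN1;3 was the member that rose (0.37 ± 0.10), and no member rose without 15C replicate 2 or without 20C replicate 1. NIA2 gave 2.34 to 2.54 at 15C and 2.49 to 2.63 at 20C, with no call.

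Of 25 genes of nitrate transport and signalling, 3 rose and 3 fell, with a median of 0.01. NRT1.1, a nitrate transporter and sensor, had 6.10, 5.95 and 5.82 at 15C, against 4.90, 5.33 and 4.72 at 20C (0.97 ± 0.21, adjusted p = 0.00177). NLP8, which is needed for nitrate-promoted germination, had 9.80, 9.50 and 9.72 at 15C, against 8.94, 9.16 and 9.06 at 20C (0.62 ± 0.10, adjusted p = 2.93e-05). NRT2.5 rose by 0.56 ± 0.17. LBD39 and HHO2, a pair of nitrate-induced transcription regulators, fell by 0.96 ± 0.20 and 0.93 ± 0.17, and the kinase gene CIPK23 fell by 0.31 ± 0.10.

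Heat shock genes code for chaperones and their regulators. Of 20 members 8 fell and 1 rose, and the median was -0.24. MBF1C, a coactivator of heat tolerance, had 8.25, 8.48 and 8.52 at 15C, against 9.61, 9.57 and 9.54 at 20C (-1.16 ± 0.10, adjusted p = 1.26e-09). The heat-induced factor HSFA2 had 6.2, 6.06 and 6.13 at 15C, against 7.13, 7.13 and 7.15 at 20C (-1.01 ± 0.17, adjusted p = 6.82e-05). In each the 15C arrays lay wholly below the 20C arrays.

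The co-chaperone gene ROF2 fell by 1.23 ± 0.20 (adjusted p = 6.18e-05), and the mitochondrial HSP23.6 by 0.98 ± 0.19 (adjusted p = 4.99e-04). HSP22 (-0.95), HSP17.6II (-0.86), HSP90.1 (-0.41) and HSA32 (-0.29) were lower as well. HSFA1A was the member that rose (0.27 ± 0.09, adjusted p = 0.0459), and no member rose when any single array other than 15C replicate 2 was left out. HSP101, whose product restores aggregated proteins and is abundant in seed, gave 10.5, 10.3 and 10.1 at 15C and 10.3, 10.4 and 10.5 at 20C, with overlapping arrays. HSFA9, the heat shock factor of seed maturation, did not pass either (0.12 ± 0.09).

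Of 24 cold response genes 3 rose, 1 fell and the median was 0.10. COR413-PM1, a cold-regulated membrane protein, had 7.76, 7.96 and 7.95 at 15C, against 6.89, 6.73 and 6.78 at 20C (1.09 ± 0.14, adjusted p = 1.98e-06). The transcription factor gene CBF4 had 4.98, 4.63 and 3.90 at 15C, against 3.54, 3.69 and 3.34 at 20C (0.98 ± 0.24, adjusted p = 0.00555), and without 15C replicate 1 its call was lost (0.74, adjusted p = 0.0746). ZAT10 rose by 0.65 ± 0.19 (adjusted p = 0.0221), and its call was lost without 15C replicate 1 or 2 (0.63 and 0.65, adjusted p = 0.0753 and 0.0602) and without 20C replicate 1 or 2 (0.61 and 0.65, adjusted p = 0.0818 and 0.0615). GRP7, an RNA-binding protein under clock control, had 8.60, 8.80 and 8.59 at 15C, against 9.50, 9.51 and 9.24 at 20C (-0.75 ± 0.14, adjusted p = 4.60e-04). The cold-induced activators CBF1, CBF2 and CBF3 were dim in every array, at 1.74 to 2.48 at 15C and 1.62 to 2.71 at 20C. Their target COR78 changed by 0.07 ± 0.15.

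Of the 22 flavonoid and proanthocyanidin genes 3 rose and none fell, with a median of 0.04. MYB12, an activator of flavonol synthesis, had 4.98, 4.77 and 4.02 at 15C, against 3.24, 3.54 and 3.26 at 20C (1.24 ± 0.22, adjusted p = 1.69e-04). CHI, chalcone isomerase, rose by 0.85 ± 0.19 (adjusted p = 0.00307) and lost its call without 20C replicate 1 (0.56, adjusted p = 0.063). CHS, chalcone synthase, with 0.42 ± 0.16, did not pass (adjusted p = 0.11). The remaining member that rose lost its call without 15C replicate 1 or 3 and without 20C replicate 1 or 3. Without 20C replicate 1, 1 of the 22 rose.

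In a list of 16 ethylene genes 4 rose and 1 fell, with a median of 0.27. ACS7, an enzyme of ethylene synthesis, had 5.28, 4.89 and 4.92 at 15C, against 3.79, 3.71 and 3.46 at 20C (1.38 ± 0.40, adjusted p = 0.023). No array overlapped between the temperatures. Its call was lost without 15C replicate 1 or 3 (1.25 and 1.43, adjusted p = 0.0974 and 0.053) and without 20C replicate 2 or 3 (1.41 and 1.28, adjusted p = 0.0555 and 0.0919). The receptor gene ERS2 rose by 0.84 ± 0.14 (adjusted p = 8.76e-05), ACS2 by 0.60 ± 0.14 and the kinase gene CTR1 by 0.43 ± 0.10. EIN2, the membrane component downstream of CTR1, was called lower (-0.36 ± 0.12, adjusted p = 0.0456) with overlapping arrays, and no member fell without 15C replicate 2 or 3 or without 20C replicate 2 or 3.

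Fatty acid desaturation is known to rise in the cool. Of 15 lipid genes 3 rose and none fell, with a median of -0.06. The omega-3 desaturase gene of the endoplasmic reticulum, FAD3, had 7.99, 7.62 and 7.69 at 15C, against 7.07, 7.12 and 7.02 at 20C (0.69 ± 0.17, adjusted p = 0.00545, but 0.0530 without 15C replicate 1, with a change of 0.58). Its plastid counterpart FAD7 rose by 0.69 ± 0.18 (adjusted p = 0.0108), without a call when 15C replicate 2 was left out (0.54, adjusted p = 0.0953). In NIL DOG1 and NIL DOG6, FAD7 changed by -0.07 and -0.27, with no call, and FAD3 rose by 1.16 and 1.41. The differences of NIL DOG3 from the mean of those lines did not pass (limma, adjusted p = 0.227 for FAD7 and 0.707 for FAD3). FAB2, a stearoyl-ACP desaturase, rose by 0.65 ± 0.11 (adjusted p = 1.08e-04). FAD2 (-0.21) and FAE1 (0.27) did not pass.

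Sugar genes of the raffinose, trehalose and SWEET families gave 3 rises and 1 fall in 16. The sugar exporter gene SWEET10 had 5.36, 4.52 and 4.48 at 15C, against 3.25, 2.95 and 3.35 at 20C (1.6 ± 0.22, adjusted p = 6.19e-06). TPS1, which makes trehalose 6-phosphate, rose by 0.77 ± 0.10 (adjusted p = 4.26e-06), while its relative TPS8 fell by 0.58 ± 0.14 (adjusted p = 0.0041). GOLS2, galactinol synthase, rose by 0.39 ± 0.11, without a call when 15C replicate 1 or 20C replicate 3 was left out (0.37 and 0.32, adjusted p = 0.0645 and 0.118).

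Of 19 clock genes 4 rose and none fell. GI had 7.68, 7.59 and 7.70 at 15C, against 6.98, 7.29 and 7.20 at 20C (0.50 ± 0.09, adjusted p = 1.66e-04), and PRR9 and PRR7 rose by 0.50 ± 0.11 and 0.37 ± 0.08. The remaining clock member that rose lost its call without 15C replicate 1 or 3 and without 20C replicate 2 or 3. Of 21 photoreceptor and light signalling genes 1 rose and 2 fell. PIF7 rose by 0.83 ± 0.16 (adjusted p = 4.39e-04). Without 15C or 20C replicate 2 a second light gene rose, and without 20C replicate 1 a clock gene fell. PHYA, the far-red light receptor, had 7.83, 7.81 and 7.61 at 15C, against 8.20, 8.23 and 8.11 at 20C (-0.43 ± 0.11, adjusted p = 0.00856, and -0.36 with 0.071 without 15C replicate 3). PHYB, the main red light receptor, was lower by less (-0.33 ± 0.10, adjusted p = 0.0373), and its call was lost without any of the arrays except 20C replicate 1.

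Storage protein and oil body genes gave 3 falls in 13, all of them 2S albumins. SESA4 had 10.6, 11.3 and 11.2 at 15C, against 11.8, 11.5 and 11.9 at 20C (-0.68 ± 0.17, adjusted p = 0.00938). SESA2 (-0.55 ± 0.15) and SESA1 (-0.40 ± 0.12) were called as well, but none of the members was called without 15C replicate 1 (-0.45, -0.48 and -0.33) or without 20C replicate 3 (-0.59, -0.50 and -0.36), and 1 was called without 20C replicate 1. The cruciferins CRA1, CRU2 and CRU3 (-0.12 to 0.02) and all 5 oleosins (-0.11 to 0.13) did not pass. None of 15 late embryogenesis genes was called by limma, 1 had an unadjusted p under 0.05, and their changes lay between -0.07 and 0.27.

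Of 13 antioxidant genes 2 rose, the catalase gene CAT1 (0.55 ± 0.10) and the NADPH oxidase gene RBOHD (0.43 ± 0.11), and the ascorbate peroxidase gene APX6 fell (-0.39 ± 0.10), without a call when 15C replicate 1, 20C replicate 1 or 20C replicate 3 was left out (-0.33, -0.33 and -0.34). Of 20 nuclear photosynthesis genes PSAD1 was called (-0.73 ± 0.24, adjusted p = 0.0448), a call lost whichever of the 6 arrays was left out (-0.81 to -0.60). No member of the seed coat (11), endosperm (10), pollen (20) or shoot (8) lists was called by limma, with 2, 1, 0 and 0 members at an unadjusted p under 0.05. Single calls in the seed coat, endosperm and late embryogenesis lists appeared without 20C replicate 1 (seed coat and late embryogenesis) or 20C replicate 2 (endosperm).

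**Figure D2:**
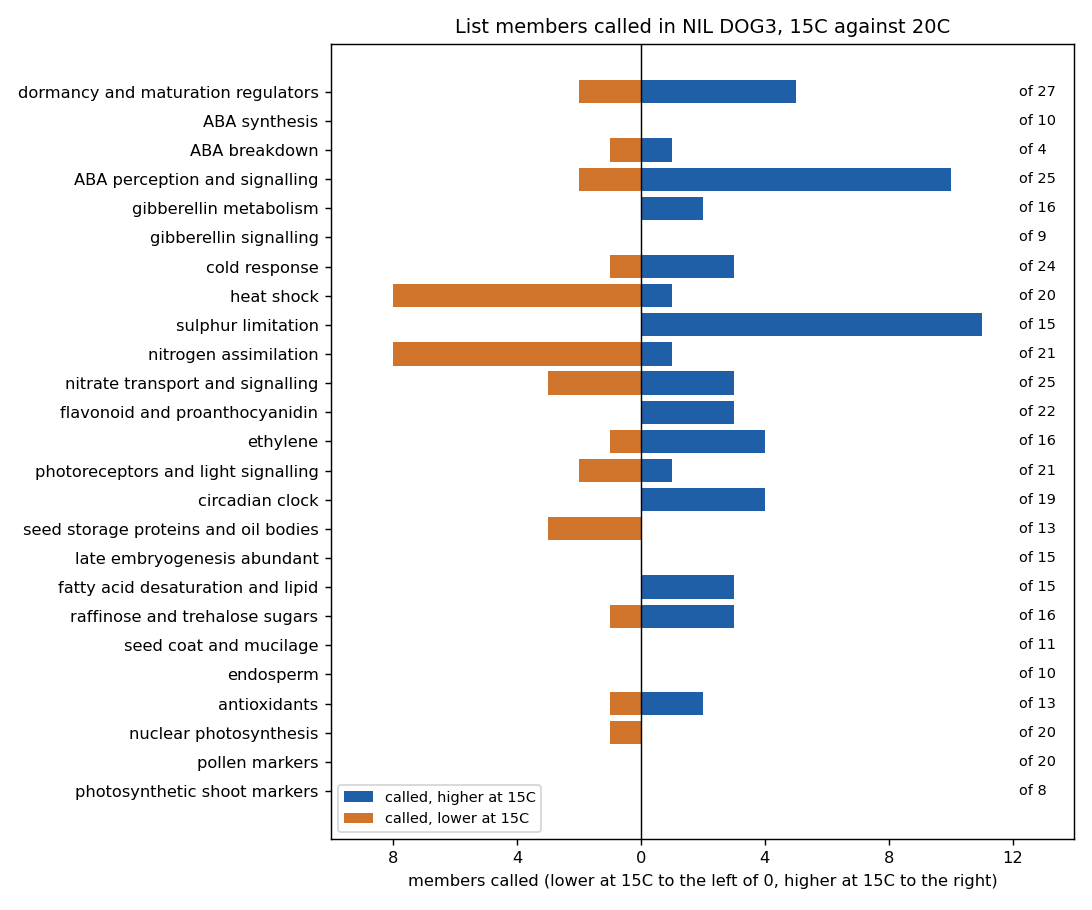
Number of members of each of the 25 gene lists called between 15C and 20C in NIL DOG3 (x axis), with those lower at 15C left of 0 and those higher at 15C right of 0. The number of members stands at the right edge. Sulphur limitation genes (11 of 15) and ABA signalling genes (10 of 25) stand out on the right, heat shock (8 of 20) and nitrogen assimilation genes (8 of 21) on the left. The lists were chosen with earlier results of these data known.

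Beyond these lists, the 15 largest rises and the 15 largest falls were taken among called probe sets without overlap. GRF7 (AT5G53660), a growth-regulating factor, had 8.18, 7.91 and 8.17 at 15C, against 5.29, 5.6 and 5.56 at 20C (2.6 ± 0.13, 6.06-fold, adjusted p = 4.15e-16), a gap of more than 2 log2 units and the smallest p among the named genes. ORS1 (AT2G41230), a small protein that affects organ size, had 7.98, 7.87 and 8.09 at 15C, against 5.69, 5.75 and 5.93 at 20C (2.19 ± 0.17, 4.56-fold). CAM9, a calmodulin-like protein, rose by 1.75 ± 0.12 (adjusted p = 9.17e-12).

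KCS1, an enzyme of very long chain fatty acid and wax synthesis, had 5.13, 4.22 and 4.39 at 15C, against 2.61, 2.86 and 2.73 at 20C (1.85 ± 0.24). PDF1.3, a defensin, rose by 1.86 ± 0.29. Genes without a symbol made up the rest, namely AT1G55450 (2.27), AT5G59530 (2.22), AT4G36500 (2.06), AT1G30190 (1.93), AT1G19020 (1.87), AT4G21920 (1.8) and AT2G22880 (1.79). AT1G55450 changed by 1.76 in NIL DOG1 and by 0.36 in NIL DOG6, where it did not pass. Its difference from NIL DOG6 alone, 1.92 ± 0.36, was called (limma, adjusted p = 0.0243), and that from the mean of both lines was not (adjusted p = 0.227). Of the 15 rises, 11 were also called higher in both other lines. The lower group mean was under the median of all probe sets in 6 of them.

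The largest fall was that of SSL4, a strictosidine synthase-like gene, with 3.77, 4.24 and 3.48 at 15C, against 6.72, 6.40 and 7.10 at 20C (-2.91 ± 0.30, 7.52-fold lower, adjusted p = 2.64e-08). WOX2, a homeobox factor of the early embryo, had 6.83, 8.16 and 8.48 at 15C, against 9.56, 9.72 and 9.55 at 20C (-1.79 ± 0.34, adjusted p = 4.95e-04). Its 15C arrays spread over more than 1 log2 unit but stayed below all 20C arrays. PIFI, a chloroplast protein linked to the NAD(P)H dehydrogenase complex, had 4.53, 4.38 and 4.44 at 15C, against 6.09, 6.32 and 6.26 at 20C (-1.77 ± 0.14, adjusted p = 1.18e-10).

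TI2 (AT2G43520), a trypsin inhibitor, fell by 1.63 ± 0.16 (adjusted p = 7.12e-09). The plastid locus ATCG00250 had 5.57, 5.70 and 5.59 at 15C, against 7.44, 7.91 and 7.51 at 20C (-2.0 ± 0.27). NIA1 and NIR1, described above, belong to this set. AT5G66053 was second in size (-2.53 ± 0.68, adjusted p = 0.0133), but this rests on 15C replicate 3, without which it was -0.79 ± 0.35 (adjusted p = 0.223), and the call was also lost without 20C replicate 1 (-2.33, adjusted p = 0.061). The other members were AT3G20362 (-2.02), AT5G62720 (-1.93), AT1G78170 (-1.69), AT4G34419 (-1.66), AT5G10120 (-1.6), AT5G33300 (-1.59) and AT5G39080 (-1.57). Of the 15 falls, 13 were also called lower in both other lines. The lower group mean was under the median of all probe sets in 4 of the 15.

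**Figure D3:**
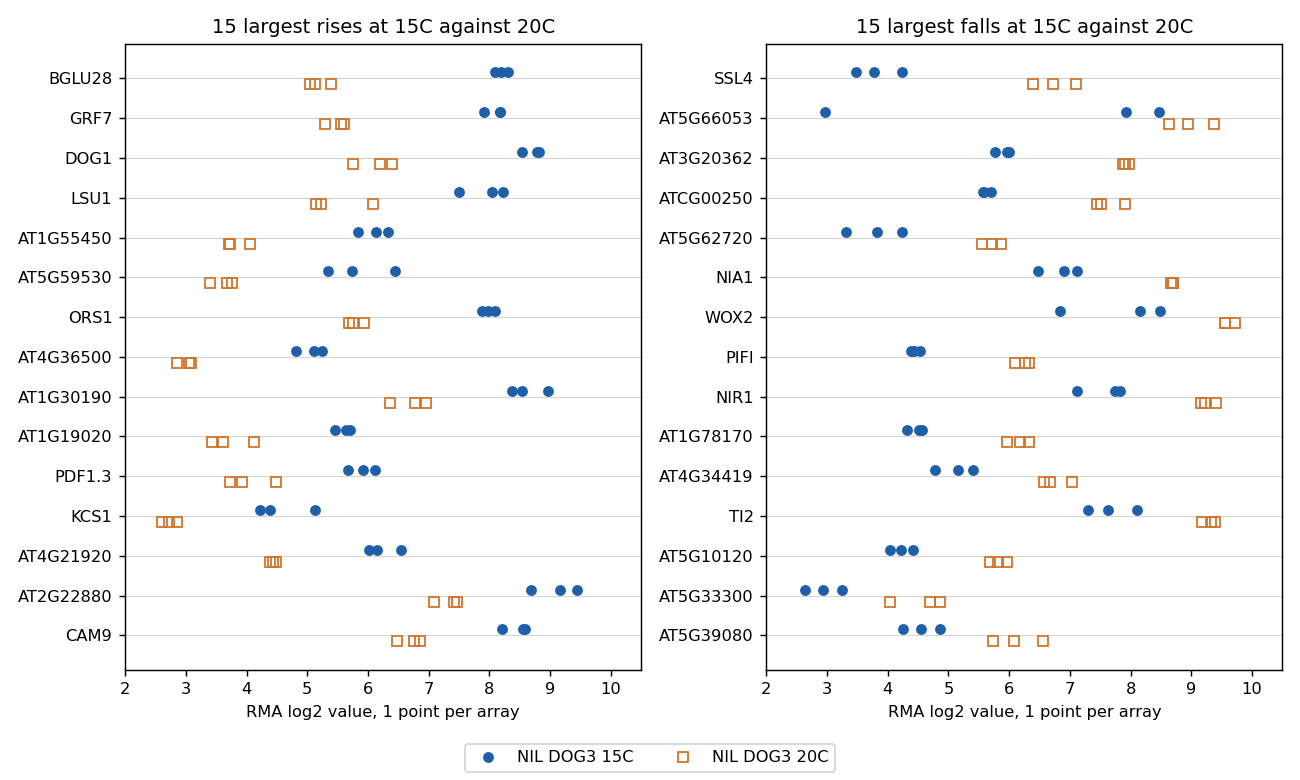
RMA log2 value (x axis) of the 15 largest rises (left) and the 15 largest falls (right) in NIL DOG3, 1 point per array, with 15C arrays as filled circles above 20C arrays as open squares. No gene has overlapping groups, and AT5G66053 has 1 of its 15C arrays at 2.97 and the others at 7.92 and 8.47.

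How far the response of NIL DOG3 is its own was asked with the other lines. In NIL DOG1 2707 probe sets were called (9.73%) and in NIL DOG6 3255 (11.7%). Of the 2557 called in NIL DOG3, 1208 (47.2%) were called in all 3 lines, and 2421 (94.7%) had the same sign in all 3 lines. Across all probe sets the correlation of the changes was 0.663 with NIL DOG1 and 0.614 with NIL DOG6, beside 0.660 between these 2 lines. This describes probe sets on the same arrays, which are not independent replicates.

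The difference itself, the change in NIL DOG3 minus the mean change in NIL DOG1 and NIL DOG6, was called for 11 probe sets (0.0395% of those tested), 4 with a positive and 7 with a negative difference, and 1274 had an unadjusted p under 0.05. Against NIL DOG1 alone 6 probe sets were called (0.0216%) and against NIL DOG6 alone 14 (0.0503%). The median standard error of the difference was 0.196, above that of a change within NIL DOG3. No member of the 25 lists was among the 11.

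**Figure D4:**
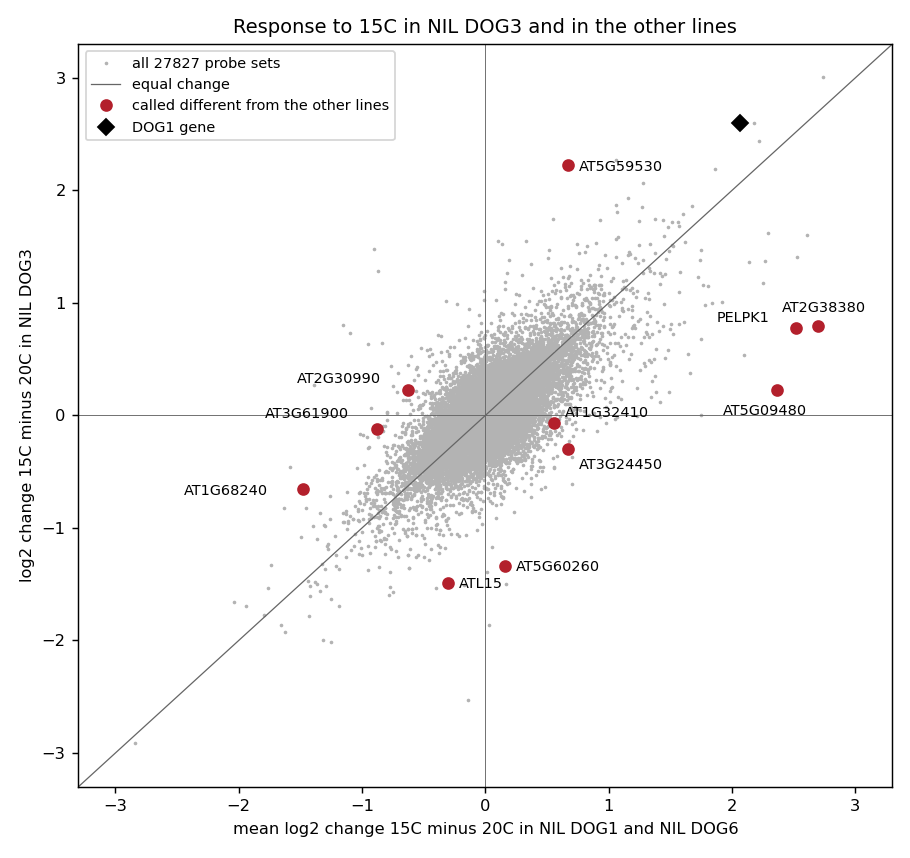
Log2 change between 15C and 20C in NIL DOG3 (y axis) against the mean log2 change in NIL DOG1 and NIL DOG6 (x axis), 1 grey point per probe set. The 11 probe sets called as different are in red and the DOG1 gene is a black diamond, and AT5G09480, AT2G38380 and PELPK1 lie far right of the line of equal change.

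Of the 11 genes, 5 moved less in NIL DOG3. AT5G09480 had 2.98, 3.40 and 3.2 at 15C and 2.78, 2.93 and 3.18 at 20C in NIL DOG3, which overlap. In NIL DOG1 it had 5.78, 5.87 and 5.95 at 15C, against 3.1, 3.28 and 3.67 at 20C, and in NIL DOG6 5.10, 5.63 and 4.91 at 15C, against 2.87, 3.01 and 3.12 at 20C. The change was thus 0.23 ± 0.24 in NIL DOG3, beside 2.52 and 2.22, a difference of -2.14 ± 0.29 (adjusted p = 4.69e-04).

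AT2G38380, a class III peroxidase gene by its family, had 4.97, 4.81 and 4.34 at 15C, against 3.83, 3.82 and 4.1 at 20C in NIL DOG3. In NIL DOG1 the 15C arrays had 7.03, 7.25 and 6.93, against 4.44, 4.39 and 4.63 at 20C, and in NIL DOG6 6.64, 6.83 and 6.70, against 4.43, 3.94 and 3.40. All 3 lines were higher at 15C without overlap, with changes of 0.79, 2.58 and 2.80 in NIL DOG3, NIL DOG1 and NIL DOG6, and the difference was -1.90 ± 0.27 (adjusted p = 5.30e-04).

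PELPK1 (AT5G09530), a proline-rich cell wall protein, had 3.72, 4.15 and 3.61 at 15C, against 3.27, 2.63 and 3.24 at 20C in NIL DOG3, a change of 0.78 ± 0.26 that did not pass (adjusted p = 0.0508). It rose by 2.41 in NIL DOG1 and 2.63 in NIL DOG6, and the difference was -1.74 ± 0.31 (adjusted p = 0.0167). At 15C the level of the 3 genes in NIL DOG3 was below the mean of the other lines, by 2.35 (AT5G09480), 2.19 (AT2G38380) and 2.08 (PELPK1) on the log2 scale. At 20C the differences of -0.21, -0.29 and -0.34 did not pass.

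The other genes of this kind fell in the other lines. AT1G68240 had 8.97, 8.88 and 9.17 at 15C, against 9.55, 9.77 and 9.68 at 20C in NIL DOG3, a fall of 0.66 ± 0.12, where NIL DOG1 and NIL DOG6 fell by 1.67 and 1.29 (difference 0.82 ± 0.14, adjusted p = 0.0134). AT3G61900, listed as SAUR33 of the small auxin-induced family, had 7.77, 7.73 and 7.90 at 15C and 7.82, 7.95 and 8.01 at 20C in NIL DOG3, which overlap. It fell by 0.71 in NIL DOG1 and by 1.04 in NIL DOG6 (difference 0.76 ± 0.14, adjusted p = 0.0182).

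Another 2 genes moved more in NIL DOG3. AT5G59530 had 6.44, 5.73 and 5.34 at 15C, against 3.76, 3.68 and 3.40 at 20C in NIL DOG3 (2.22 ± 0.24, adjusted p = 8.80e-08). Its changes in NIL DOG1 and NIL DOG6 were 0.87 and 0.47, and the difference was 1.55 ± 0.30 (adjusted p = 0.0259). ATL15 (AT1G22500), a RING-type ubiquitin ligase gene by its family, had 5.01, 5.10 and 4.98 at 15C, against 6.29, 6.85 and 6.42 at 20C in NIL DOG3 (-1.49 ± 0.19). In NIL DOG1 and NIL DOG6 the changes were -0.16 and -0.45, neither of which passed, and the difference was -1.19 ± 0.24 (adjusted p = 0.0474). ATL15 was higher in NIL DOG3 than in the other lines at 20C (by 1.68) and under SL (by 1.43), and the difference of 0.50 at 15C did not pass (adjusted p = 0.109).

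The last 4 genes had an estimate of opposite sign to the mean of the other lines, but none passed with one sign in NIL DOG3 and the other sign in another line. AT5G60260 had 2.48, 2.65 and 2.97 at 15C, against 4.16, 4.25 and 3.70 at 20C in NIL DOG3 (-1.34 ± 0.18, adjusted p = 3.67e-06). The 12 arrays of the other lines lay between 2.46 and 3.26, and their changes of 0.15 and 0.16 did not pass (difference -1.5 ± 0.22, adjusted p = 8.97e-04). At 20C its level in NIL DOG3 was thus above all arrays of the other lines, and at 15C the lines overlapped. All of these values are in the dim range of the array, under 4.29.

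The remaining genes did not pass in NIL DOG3 itself. AT3G24450 had 2.16, 2.36 and 2.44 at 15C and 2.77, 2.46 and 2.62 at 20C in NIL DOG3 (-0.30 ± 0.14, adjusted p = 0.22). It rose by 1.38 in NIL DOG6 and gave -0.04 in NIL DOG1, so the difference of -0.97 ± 0.17 (adjusted p = 0.0134) rests on NIL DOG6, and that from NIL DOG1 alone, -0.25, did not pass. AT1G32410 had 7.89, 7.80 and 7.70 at 15C and 7.79, 7.84 and 7.94 at 20C in NIL DOG3, with rises of 0.42 and 0.70 in NIL DOG1 and NIL DOG6 (difference -0.62 ± 0.12, adjusted p = 0.0251). AT2G30990 had 5.34, 5.57 and 5.84 at 15C and 5.40, 5.45 and 5.24 at 20C in NIL DOG3, with falls of 0.47 and 0.78 in NIL DOG1 and NIL DOG6 (difference 0.85 ± 0.17, adjusted p = 0.0474).

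**Figure D5:**
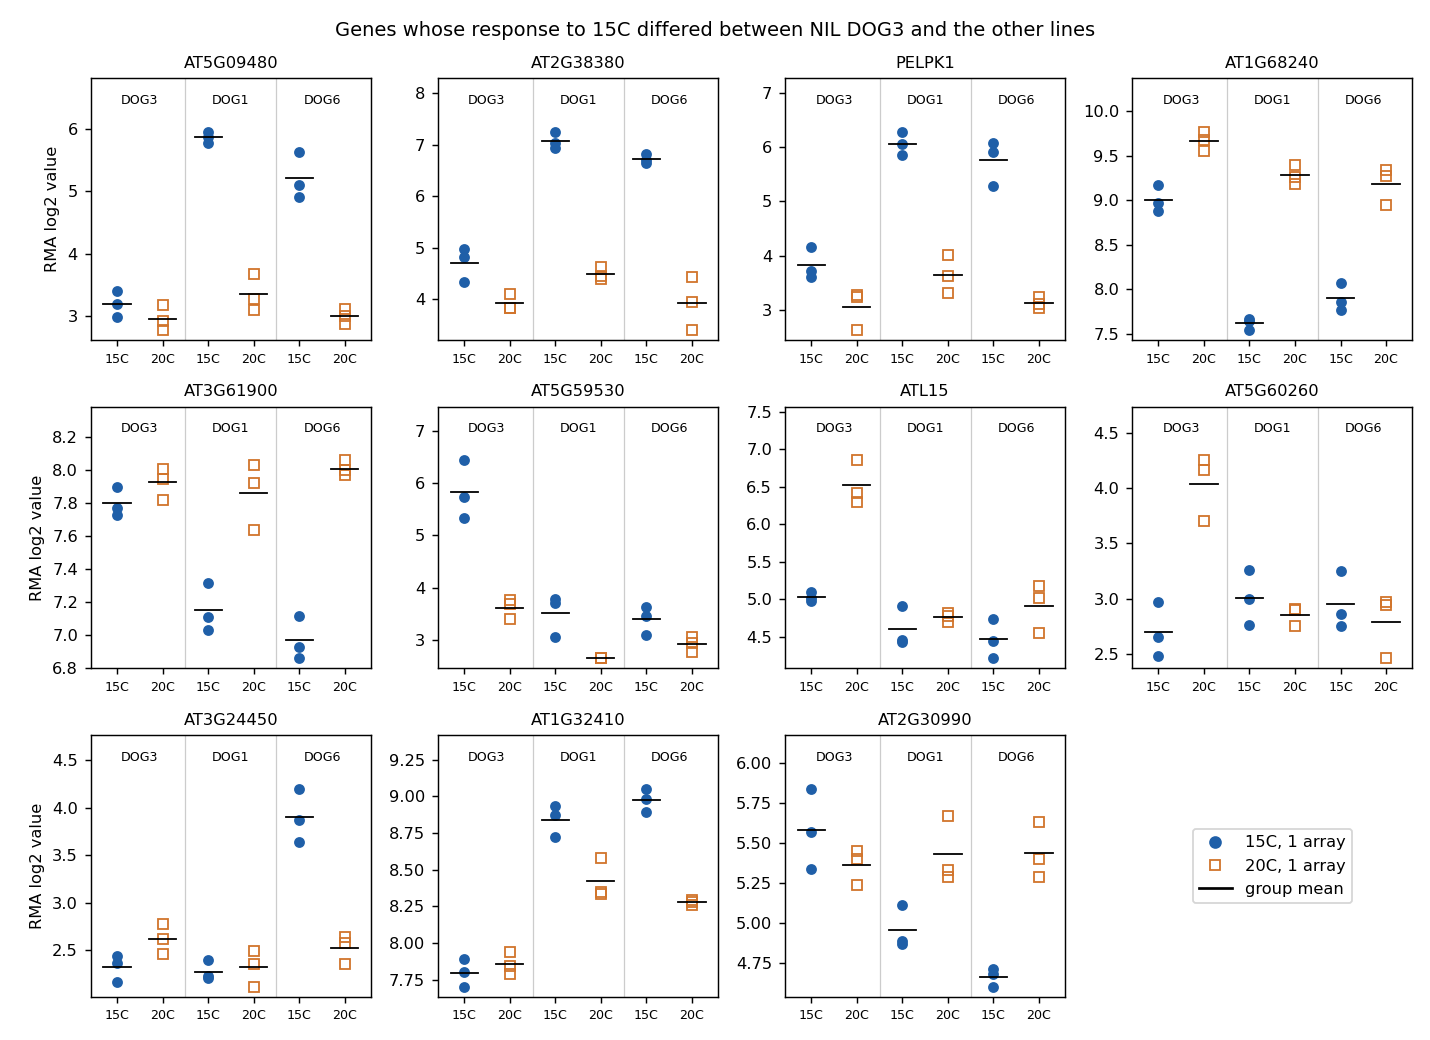
RMA log2 value (y axis) of the 11 genes called for a different response, 1 point per array, at 15C (filled circles) and 20C (open squares) in NIL DOG3, NIL DOG1 and NIL DOG6 (x axis), with group means as bars. AT5G09480 stays at or below 3.40 in NIL DOG3 while the 15C arrays of the other lines lie at 4.91 or more.

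Of the 11 genes, 4 (36.4%) lie within the spans AT1G22275 to AT1G33055 and AT5G57260 to AT5G66053, which hold the segments that mark NIL DOG3 and 1990 (7.15%) of all 27827 probe sets. These shares are a description of few genes, with no test. ATL15 and AT1G32410 are within the segment of chromosome 1, AT5G59530 is within the first segment of chromosome 5, and AT5G60260 lies between both segments of chromosome 5. Without 15C replicate 3, the array that differs at the end of chromosome 5, the change of AT5G60260 was -1.47 ± 0.20 and that of AT5G59530 was 2.47 ± 0.26, both called.

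Only AT5G09480, AT2G38380 and AT5G60260 passed for the difference under all alternatives in which they were tested (14, 15 and 13 of them), the removal of each NIL DOG3 array included. The fit with the dim probe sets left out held neither AT5G09480 nor AT5G60260, so neither was tested in it. The fit without loci after AT5G59770 did not hold AT5G60260 either. The differences of the other 8 genes kept their sign but lost their call in 3 (AT1G68240 and AT3G24450) to 11 (ATL15) of 14 or 15 alternatives. Their values under these alternatives lay at 0.74 to 0.88 (AT1G68240), -1.95 to -1.63 (PELPK1), 0.70 to 0.80 (AT3G61900), 1.25 to 1.8 (AT5G59530), -1.30 to -1.02 (ATL15), -1.04 to -0.89 (AT3G24450), -0.67 to -0.57 (AT1G32410) and 0.72 to 0.97 (AT2G30990). The count of 11 became 7 without 15C replicate 1, 5 without 15C replicate 3 and 3 without 20C replicate 1. The genes that lost their call without 15C replicate 3 were AT1G68240, PELPK1, AT3G61900, ATL15, AT1G32410 and AT2G30990 (limma, adjusted p = 0.118 to 0.252).

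A second view took the probe sets that were called and changed at least 2-fold in the same direction in both NIL DOG1 and NIL DOG6, and read them in NIL DOG3. There were 163, of which 113 rose and 50 fell in those lines. Turned so that the direction of the other lines is positive, their median change was 1.07 in NIL DOG3, beside 1.37 in each of the other lines, whose values chose them. In NIL DOG3 133 were called, 16 had less than 0.5, and 1 had the opposite sign. The same reading gave a median of 1.33 over 112 probe sets with NIL DOG1 as the third line and of 1.19 over 137 with NIL DOG6. In NIL DOG1 108 of its 112 were called, 1 had less than 0.5, and 1 had the opposite sign. In NIL DOG6 116 of its 137 were called, 10 had less than 0.5, and none had the opposite sign. No test was made of these medians or counts.

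The 16 in NIL DOG3 included AT5G09480 and several genes whose difference did not pass, which were chosen after their values were seen. LAC8, a laccase, changed by 0.01 ± 0.35 in NIL DOG3, beside 1.63 and 1.86 (difference adjusted p = 0.176). The amino acid exporter SIAR1 changed by 0.12 ± 0.26, beside 1.22 and 1.61 (adjusted p = 0.183), and the sugar exporter SWEET7 by 0.16 ± 0.20, beside 1.14 and 1.01 (adjusted p = 0.267). UMAMIT12 and AT1G20680 came nearest to the threshold (0.38 and 0.17 in NIL DOG3, adjusted p = 0.0684 each). The 1 probe set of opposite sign in NIL DOG3 was GLP6, a germin-like protein. It had 6.27 to 6.56 at 15C and 5.67 to 6.69 at 20C in NIL DOG3. The change was 0.27 ± 0.41, beside -1.39 in each other line (difference adjusted p = 0.494).

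Among the 292 probe sets called at 2-fold or more in NIL DOG3, 4 had the opposite sign in both other lines. They were AT5G60260 and AT5G66052, described here for their place on chromosome 5, and GSTF7 and NAC042. AT5G66052 fell by 1.5 ± 0.42, and by 0.51 without a call (adjusted p = 0.372) when 15C replicate 3 was left out. GSTF7, a glutathione transferase induced by pathogens, had 9.85, 9.85 and 9.88 at 15C, against 8.39, 7.93 and 8.81 at 20C in NIL DOG3 (1.48 ± 0.44, adjusted p = 0.0266), beside -0.56 and -1.24 in NIL DOG1 and NIL DOG6, which did not pass (adjusted p = 0.548 and 0.0612). NAC042, a stress-related transcription factor, had 5.30, 5.20 and 4.92 at 15C, against 3.72, 3.43 and 4.42 at 20C (1.28 ± 0.39, adjusted p = 0.0293), beside -0.68 and -1.06, which did not pass either (adjusted p = 0.337 and 0.0728). Their differences from the other lines, 2.38 and 2.15, did not pass (adjusted p = 0.128 and 0.108).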

How the data were processed

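The values used are log2 expression values deposited by the authors, 1 per probe set and array, made with RMA (background correction, quantile normalization, probe summary) per the submitters' processing notes. Which RMA version, annotation and build they used is not given in the sources used here. Samples are labelled as total RNA, although their protocol text covers polysome RNA too. Quantile normalization hides a change of the total RNA amount.

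Gene symbols were taken from RefSeq's TAIR10.1 annotation, which holds 27241 of the 27827 loci, 10556 of them with a symbol. On all arrays 182 probe sets carry the same values as another one, and these cannot be separated. No pair of arrays was identical.

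All 44 arrays in 15 groups of line and condition were fitted with limma 3.58.1 (lmFit, eBayes) in R 4.3.3, as group means without a filter or block, giving 29 residual degrees of freedom and a median residual SD of 0.199. Each group had 3 arrays, NIL DOG3 under N0 having 2. Contrasts were two-sided, with Benjamini-Hochberg adjustment over all probe sets. The fit was tested on simulated data. The number of arrays limits the precision. Dim means a lower group mean under 4.29, the median of all probe set means, and the word was not added to every such gene. Others with so low a mean in NIL DOG3 include CYP707A1, PYL8, GA2OX6, GGCT2;1, FNR2 and CBF4. MYB12, ACS7, SWEET10, PSAD1, KCS1 and SSL4 belong there too.

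Named genes were the 15 largest rises and falls among called probe sets without overlap, up to 4 called members per list, the called line differences (up to 6 per class of weaker, stronger and opposite) and the DOG1 gene. Other list members are named to account for a list, and not every gene the rule gave is named. Of the list members 415 were used and 1 was left out. The members and lists were chosen with earlier results of these data known. Figures were drawn with matplotlib 3.10.9. A result for 1 gene is not reported here.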

Additional observations from a re-analysis of the deposited data

Results flagged for a closer look

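The 11 results here were marked because the response to 15C differed between the lines in a test of the difference itself, the change in NIL DOG3 minus the mean change in NIL DOG1 and NIL DOG6 (limma, Benjamini-Hochberg over all probe sets). The response was weaker in NIL DOG3 for AT5G09480 (-2.14), AT2G38380 (-1.9), PELPK1 (-1.74), AT1G68240 (0.82) and AT3G61900 (0.76). It was larger for AT5G59530 (1.55) and ATL15 (-1.19). The estimate differed in sign from the mean of the other lines for AT5G60260 (-1.5), AT3G24450 (-0.97), AT1G32410 (-0.62) and AT2G30990 (0.85). In none of these 4 did the change pass both in NIL DOG3 and, with the other sign, in another line, and AT3G24450 has the same sign in NIL DOG1. Dixon's test of an outlying sample was not run on these groups of 3 arrays.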

How the results depend on the processing

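The count of called probe sets in NIL DOG3 lay between 2299 and 3478 under the other fits of all or 18 arrays, but was 1241 with only the 6 arrays of NIL DOG3, of which 1150 were among the 2557. Leaving out single arrays gave 1766 to 1990, of which 1671 to 1853 were shared with the full count. The count at 2-fold or more was 226 to 301 (242 to 308 without single arrays), and the change of the DOG1 gene 2.53 to 2.64 (2.42 to 2.73). The 11 line differences became 7 with only the 18 arrays at 15C and 20C, 6 with the dim probe sets left out and 37 with array weights, and 3 to 15 without single arrays. Against NIL DOG1 alone the 6 became 1, 2 and 18 (4 to 8 without single arrays), and against NIL DOG6 alone the 14 became 8, 9 and 23 (5 to 11). The cause was not tested. None of the 80 to 96 named gene results fitted per alternative changed sign. Without 20C replicate 2, 746 probe sets fell in place of 1180. Same-numbered arrays at 15C and 20C did not deviate together (correlations -0.135, -0.126 and 0.0319, beside -0.0959 to 0.211 for other pairs). In groups of 3 arrays such correlations cannot settle whether the replicate numbers mark blocks. With the replicate numbers as a block, 2541 probe sets were called in NIL DOG3, 2461 of them among the 2557. Of the 2541, 295 were at 2-fold or more. The DOG1 gene was at 2.6, and there were 9, 6 and 15 line differences. The fit without loci after AT5G59770 was chosen after seeing the data and called 2424. Of 800 counts of list members 96 moved by over 1.5 times. A probe set under the median of the array has a signal near background, which limits its change.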

Other observations

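Some gene families outside the lists were counted after their values had been seen, as a description with no test. Of 67 WRKY factors 7 rose and none fell at 15C in NIL DOG3 (10.4% called, against 9.19% over all probe sets). WRKY33 (1.74 ± 0.19) and WRKY8 (1.73 ± 0.18) led, and the median of the family was 0.04. Of 81 NAC factors 8 rose and 1 fell (11.1% called). NAC019 rose by 1.26 ± 0.23, and also rose in NIL DOG1 (1.43) and NIL DOG6 (1.49). Of 115 MYB factors 7 rose and 2 fell (7.83% called), and the largest rise was that of MYB31 (1.57 ± 0.19), a regulator of cuticular wax genes. Of 174 microRNA genes 8 rose (4.6% called, against 9.19% over all probe sets). Their median level was 2.29 at 15C and 2.26 at 20C, in the dim range of the array. The low share can therefore not be read as a trait of microRNA genes. MIR403 (0.80 ± 0.19) and MIR404 (0.70 ± 0.16) were higher in all 3 lines. MIR844 (0.82 ± 0.23) was at -0.02 and -0.05 in NIL DOG1 and NIL DOG6.

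Among transcripts of the organelle genomes, of 92 mitochondrial loci 23 fell and 1 rose (26.1% called, median -0.21). Of 15 plastid loci 4 fell (26.7% called, median -0.30). The mitochondrial loci fell by up to 1.53 (ATMG00770) and the plastid loci by up to 2.0 (ATCG00250). Of 46 ribosomal proteins named RPL or RPS 6 fell and none rose (13% called, median -0.18). The median levels of the mitochondrial, plastid and ribosomal sets at 15C were 8.09, 9.14 and 7.14. These are bright sets, for which 9.19% is a low yardstick. The median changes of the mitochondrial loci in NIL DOG1 and NIL DOG6 were -0.18 and -0.13, with 8 and 3 loci called lower. The differences between the lines in these counts were not tested. ATMG00170 and ATMG00620 share their values on every array, as do ATCG00970 and ATCG01160, so such pairs count as 1 measurement each.

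Seed of NIL DOG3 from low nitrate was compared with the same 3 arrays at 20C, so both comparisons share their control arrays. The values stand side by side with no test between them. The change at 15C and under N0 was 2.6 and 1.00 for the DOG1 gene, 3.01 and 2.16 for BGLU28, 2.44 and 2.02 for LSU1, 2.6 and 1.82 for GRF7, -1.86 and -1.78 for NIA1, and -1.70 and -1.96 for NIR1. For ORS1 it was 2.19 and 0.44. For HSP23.6 it was -0.98 and 1.16.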
